A study of Mus musculus with 8 samples.

Results

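Erythropoietin and its relatives signal through the kinase JAK2, STAT transcription factors and inhibitors that the STATs induce. The gene set described here holds 10 listed symbols of that path: Jak2, Stat3, Stat5a, Stat5b, Socs1, Socs2, Socs3, Cish, Pim1 and Pim3. All 10 are among the 18790 named genes of the files, and 9 are among the 11965 genes that passed the filter on low counts and were tested. Socs3 did not pass it. The rule is the list of symbols itself and sets no threshold on a measured value.

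RNA was measured by SmartSeq2 sequencing, a full-length cDNA method that does not mark strand, in 2 populations sorted from the femoral marrow of C57BL/6 mice carrying the Csf1r-EGFP transgene, with 4 biological replicates each. The CD11b+ population was sorted as CD11b+, F4/80+, VCAM1+, Ly6G- and low for GFP, and the CD11b- population as F4/80+, VCAM1+ and GFP+. No mouse was treated before death, and the age of the animals is not given in the sources used here. The transgene places green fluorescent protein under control of the Csf1r promoter, which is active in monocytes and macrophages, and the labels put the word macrophage in quotation marks for both populations. The series asks, by its title, how far these sorted cells are macrophages. The p-values below set the difference between the populations against the spread between these biological replicates. In bulk libraries fewer cells of a type and less RNA per cell cannot be told apart.

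In this pathway a cytokine brings together receptor chains that carry JAK2, the kinase phosphorylates the receptor and the STAT proteins, and the STATs enter the nucleus. In erythroid precursors the erythropoietin receptor acts mainly through STAT5A and STAT5B, whereas the granulocyte colony-stimulating factor receptor and the gp130 receptors act to a large part through STAT3. CISH and the SOCS proteins are induced by STATs and feed back on the receptors or the kinase, and the PIM kinases are STAT-induced serine/threonine kinases that promote survival.

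Libraries held 36604660 to 47951234 counts in the CD11b+ population and 27462607 to 35160747 in the CD11b- population. Levels are in CPM, counts scaled to a common library total. A count of 0 allows a level of up to 0.0627 to 0.0822 CPM in a CD11b+ library and up to 0.0857 to 0.110 CPM in a CD11b- library (3 counts). The 14 erythroid markers summed to 773 to 1258 CPM in the CD11b+ libraries and 33489 to 44863 CPM in the CD11b- libraries, and 14 of 14 were called lower in CD11b+. The 14 neutrophil and granule markers summed to 131515 to 152717 CPM in CD11b+, against 653 to 6910 CPM in CD11b-, and 12 of them were called higher in CD11b+. The 8 eosinophil markers summed to 6558 to 18778 CPM against 64.4 to 456 CPM, with 5 called higher. The B progenitor markers summed to 53.2 to 130 CPM against 1148 to 2367 CPM, with 9 of the 10 tested called lower. The 14 macrophage markers summed to 1050 to 1071 CPM against 497 to 852 CPM, with 3 called higher (Vcam1, Adgre1, which encodes F4/80, and Slc40a1) and 1 called lower (C1qc). VCAM1 and F4/80 are antigens of the sort, the list's median log2 fold change was -0.60, and 5 of the 14 had a positive log2, so the sum and the median differ in direction. The 10 monocyte markers summed to 488 to 763 CPM against 108 to 220 CPM, with 5 called higher and 1 lower. No marker of these 6 lists was at 0 in every library of a population. Their part in the results on the pathway genes was not tested.

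The window around the transcription start was read for each gene to show which of the pathway's own genes carry the letters that STAT dimers are known to bind, TTCNNNGAA, where N is any base. The windows run from 250 bases before to 50 bases after the start, taken from RefSeq with the build GRCm38.p6, and were searched on both strands. The motif reads the same on both strands. Of the 10 genes, 9 had a window, 12 windows in all, and Socs2 had none. Cish and Socs3, both genes for feedback inhibitors, held the motif. Cish held it 2 times, from base 1 to 9 and from base 12 to 20 counted from the start site, and Socs3 held it once, from 154 to 146 bases before its start site. The stretches are printed 5′ to 3′ on the gene's strand, with the matches in capitals. That of Cish lies on the plus strand at chr9:107296599-107296688, from 60 bases before the start to base 30 after it, and that of Socs3 on the minus strand at chr11:117969467-117969556, from 190 to 101 bases before the start.
Cish: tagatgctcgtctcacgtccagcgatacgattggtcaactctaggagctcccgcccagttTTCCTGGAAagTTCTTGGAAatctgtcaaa
Socs3: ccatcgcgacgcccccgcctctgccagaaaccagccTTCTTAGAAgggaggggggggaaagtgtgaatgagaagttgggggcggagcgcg
Over all 32851 windows of this length, 2726 held the motif (8.30%) and 150 held it at least 2 times (0.457%). The windows of Jak2, Stat3, Stat5a, Stat5b, Socs1, Pim1 and Pim3 did not hold these letters. A match is a run of letters and not a measured binding site.

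Between the populations, 4 of the 9 tested genes differed. Stat3 was higher in CD11b+ cells, and Jak2, Socs2 and Pim1 were higher in CD11b- cells, while Stat5a, Stat5b, Socs1, Cish and Pim3 did not pass the test. Genes were called at an adjusted p under 0.05 (edgeR quasi-likelihood test, Benjamini-Hochberg adjustment over all tested genes), and 29.7% of all tested genes were called, 14.6% as higher and 15.0% as lower in CD11b+. The members' share was 44.4% of 9 genes. Their median log2 fold change was -0.72, beside -0.01 over all tested genes. For 4 of the 9 tested genes the libraries of the populations did not overlap, as was the case for 36.4% of all tested genes. In 1 of these 4 CD11b+ lay above and in 3 CD11b- lay above, beside 18.1% and 18.4% of all tested genes.

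**Figure D1:**
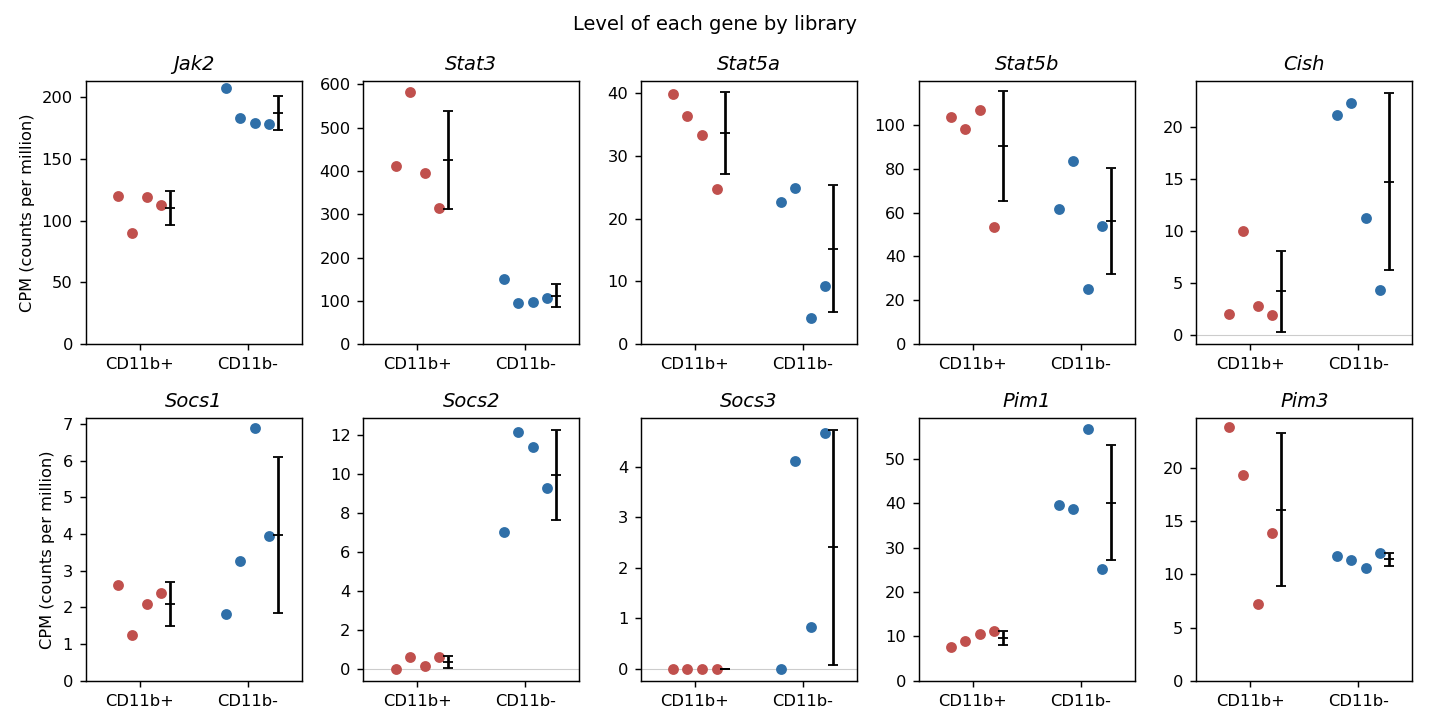
Level of each of the 10 genes in CPM (vertical axes, a separate linear scale per gene) by population (horizontal axis); each coloured point is 1 library and the black mark is the mean with its SD (n = 4). Stat3 lies higher in all 4 CD11b+ libraries and Jak2, Socs2 and Pim1 lie higher in all 4 CD11b- libraries, and Socs3 is at 0 in all 4 CD11b+ libraries.

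Jak2, the kinase bound to the erythropoietin, thrombopoietin and related receptors, stood at 119.63, 90.12, 119.39 and 112.40 CPM in CD11b+ replicates 1 to 4. In CD11b- replicates 1 to 4 it stood at 207.17, 182.87, 179.24 and 178.17 CPM. Every CD11b- library lay above every CD11b+ library. The means were 110 ± 13.9 CPM and 187 ± 13.7 CPM (SD, n = 4), and the fitted level was 1.65-fold lower in CD11b+ (log2 -0.72, SE 0.14, edgeR adjusted p = 0.00307). The adjusted p ran from 1.02e-05 to 0.0271 over the 19 alternative settings of the test.

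Stat3, the factor through which gp130 and granulocyte colony-stimulating factor receptors act, stood at 411.70, 583.09, 394.92 and 314.84 CPM in the CD11b+ libraries. It stood at 151.13, 94.65, 96.40 and 105.85 CPM in the CD11b- libraries. Even the lowest CD11b+ library was above the highest CD11b- library. The means were 426 ± 113 CPM and 112 ± 26.5 CPM (SD, n = 4), a fitted 3.94-fold higher level in CD11b+ (log2 1.98, SE 0.23, edgeR adjusted p = 0.000132, range over alternatives 2.22e-15 to 0.00157). Stat3 was the member with the largest rise in CD11b+, and the one called higher there.

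Stat5a and Stat5b encode the paired STAT5 proteins on which erythropoietin signalling relies. Stat5a stood at 39.94, 36.45, 33.41 and 24.69 CPM across the CD11b+ libraries, against 22.65, 24.89, 4.15 and 9.28 CPM in CD11b-. The populations overlapped at one point only: CD11b+ replicate 4 lay just under CD11b- replicate 2. The fitted log2 difference was 1.21 (95% interval 0.06 to 2.36, unadjusted) and did not pass the test (edgeR adjusted p = 0.111). The CD11b- libraries that were highest in Stat5a, replicates 1 and 2, were also those with the most Mpo, the myeloperoxidase of neutrophil granules. Mpo stood there at 5803 and 3948 CPM, against 1449 and 412 CPM in replicates 3 and 4. S100a9, also on the neutrophil list, was instead highest in CD11b- replicate 3 (47.35 CPM, others 5.33 to 10.45 CPM). Whether the content of such cells bears on Stat5a was not tested. Without replicates 1 and 2 of CD11b-, Stat5a was called 5.16-fold higher in CD11b+ (edgeR adjusted p = 0.00759). As these libraries were the highest of CD11b- in Stat5a, leaving them out had to widen the difference, and the call is no separate support.

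Stat5b stood at 103.73, 98.02, 106.61 and 53.25 CPM across the CD11b+ libraries, against 61.47, 83.50, 25.17 and 53.89 CPM in CD11b-. CD11b+ replicate 4 lay below 3 of the CD11b- libraries, and the other CD11b+ libraries lay above all of them. The log2 difference of 0.75 (95% interval -0.02 to 1.52) did not pass the test (edgeR adjusted p = 0.140, range over alternatives 0.0589 to 0.271). Within each population the lowest library of Stat5a was also the lowest of Stat5b, CD11b+ replicate 4 and CD11b- replicate 3.

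The 3 STAT genes lie together on chromosome 11 in the GENCODE M21 annotation, which is of another build than the authors' files. Exons of Stat3 and Stat5a overlap there by 72 bases on opposite strands. Stat5a and Stat5b are close paralogs whose coding sequences are nearly alike, so their counts may share reads, and the treatment of reads that map to both is not given in the sources used here.

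The inhibitors Cish, Socs1, Socs2 and Socs3 were the 4 lowest members per length in CD11b+ cells. Cish, the inhibitor first found as a STAT5-induced gene, stood at 2.02, 10.05, 2.80 and 1.94 CPM across the CD11b+ libraries, against 21.11, 22.27, 11.25 and 4.37 CPM in CD11b-. CD11b+ replicate 2 lay above CD11b- replicate 4, and the other CD11b+ libraries lay below every CD11b- library. The log2 difference of -1.75 (SE 0.76) did not pass the test (edgeR adjusted p = 0.119). Without CD11b+ replicate 2, Cish was called 6.32-fold lower in CD11b+ (edgeR adjusted p = 0.0281). Without CD11b- replicates 1 and 2, the libraries with the most Mpo, the difference was 1.86-fold (edgeR adjusted p = 0.568). The libraries left out were the highest of their population in Cish, so both shifts follow from the choice. The exons of Cish overlap those of 2 gene models on the opposite strand by 740 bases, and reads from these cannot be told apart from its own.

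Socs2, an inhibitor best known for its action on the growth hormone receptor, gave the largest difference of the tested members. It had counts of 0, 24, 7 and 24 in CD11b+ replicates 1 to 4 and of 201, 429, 371 and 255 in CD11b- replicates 1 to 4. In CPM these are 0, 0.61, 0.15 and 0.59 against 7.05, 12.20, 11.40 and 9.28. The CD11b- libraries were all above 7 CPM and the CD11b+ libraries all below 1 CPM. The fitted level was 28.9-fold lower in CD11b+ (log2 -4.85, SE 1.22, edgeR adjusted p = 0.0133), with an interval of the log2 difference from -7.58 to -2.12. Over the alternatives that tested it the adjusted p ran from 4.76e-06 to 0.0470, and a filter of at least 10 CPM in 4 libraries left the gene untested.

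Socs3, the inhibitor that acts on gp130 and the granulocyte colony-stimulating factor receptor, had no count in any CD11b+ library. It had 0, 145, 27 and 128 counts in CD11b- replicates 1 to 4, or 0, 4.12, 0.83 and 4.66 CPM. CD11b- replicate 1 was at 0 like the CD11b+ libraries, so the populations overlapped. Over the pooled libraries the 300 counts in CD11b- correspond to 2.44 CPM. Against 3 counts pooled over all 4 CD11b+ libraries, which is 0.0182 CPM, the pooled level in CD11b+ was at least 134-fold lower. This bound covers counting error only and not the spread between the libraries. The filter on low counts left Socs3 out. With no filter its edgeR adjusted p was 0.0413, and where leaving out 1 library brought it into the test the adjusted p was 0.0129 without CD11b- replicate 1 and 0.0597 to 0.0619 without 1 of the CD11b+ libraries.

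Socs1, the inhibitor that binds JAK kinases directly and restrains interferon-gamma signalling, was low throughout. It stood at 2.62, 1.24, 2.11 and 2.41 CPM across the CD11b+ libraries, against 1.82, 3.27, 6.88 and 3.93 CPM in CD11b-. The ranges overlapped, with CD11b- replicate 1 below 3 CD11b+ libraries. The log2 difference of -0.92 had an interval from -2.67 to 0.83 (edgeR adjusted p = 0.440), which reaches from a several-fold lower to a higher level in CD11b+.

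Of the PIM kinases Pim1 differed between the populations and Pim3 did not pass the test. Pim1 stood at 7.65, 9.06, 10.51 and 11.23 CPM across the CD11b+ libraries, against 39.70, 38.76, 56.79 and 25.12 CPM in CD11b-. All CD11b- libraries lay above all CD11b+ libraries. The means were 9.61 ± 1.59 CPM and 40.1 ± 12.97 CPM (SD, n = 4), a fitted 4.12-fold lower level in CD11b+ (log2 -2.04, SE 0.35, edgeR adjusted p = 0.00147, range over alternatives 1.52e-07 to 0.0106). The Pim1 exons overlap an antisense model by 488 bases, from which its reads cannot be told apart.

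Pim3 stood at 23.85, 19.29, 7.26 and 13.88 CPM across the CD11b+ libraries, against 11.68, 11.38, 10.60 and 11.98 CPM in CD11b-. The CD11b- libraries were close to each other and lay inside the range of the CD11b+ libraries. The log2 difference of 0.54 (95% interval -0.43 to 1.51) did not pass the test (edgeR adjusted p = 0.414).

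**Figure D2:**
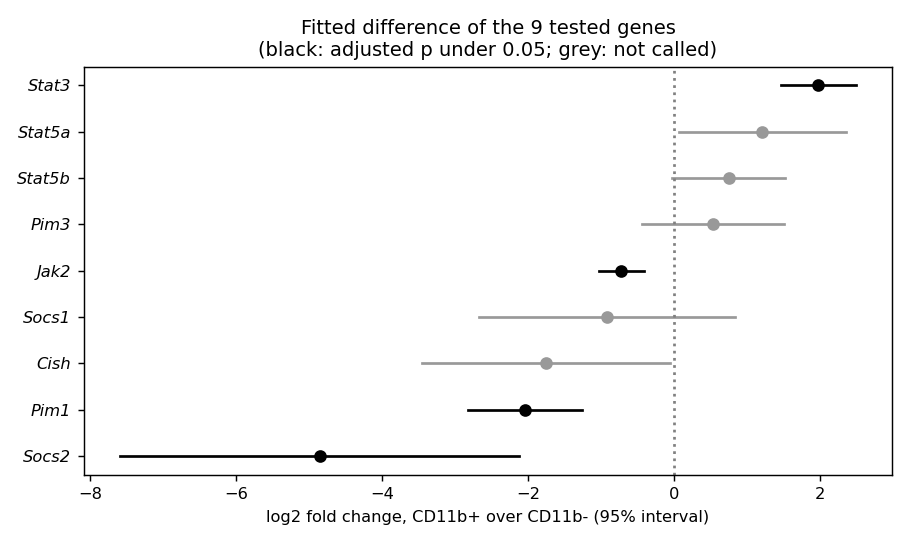
Fitted log2 fold change, CD11b+ over CD11b-, of the 9 tested genes (points) with unadjusted 95% intervals (bars); black marks genes called at an adjusted p under 0.05 and grey marks the others. Stat3 at 1.98 lies to the right of 0, and Jak2 at -0.72, Pim1 at -2.04 and Socs2 at -4.85 lie to the left.

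Divided by the length of the gene's principal transcript, the levels can be set beside each other within a population, as CPM per kilobase. In CD11b+ cells Stat3 led with 94.4 CPM per kilobase, and its libraries did not overlap those of the next gene, Jak2, at 21.9. Stat5b followed at 17.3, Stat5a at 8.65, Pim3 at 6.62, Pim1 at 3.56, Cish at 1.47 and Socs1 at 0.720 CPM per kilobase, each overlapping its neighbour in the order. Socs1 did not overlap Socs2, at 0.151, and Socs3 was listed at 0. In CD11b- cells Jak2 led with 37.1 CPM per kilobase and did not overlap Stat3, second at 24.8. Below these, Pim1 stood at 14.9, Stat5b at 10.7, Cish at 5.18, Pim3 at 4.70, Socs2 at 4.49, Stat5a at 3.92, Socs1 at 1.37 and Socs3 at 0.942 CPM per kilobase, and each overlapped the next. The places in the order depend on the length used. For Socs2 the principal transcript measures 2222 bases and the union of exons 9531. For Stat3 these lengths are 4516 and 9527 bases, for Cish 2850 and 6419, and for Stat5a 3888 and 7133. The order thus began with a STAT in CD11b+ cells and with the kinase in CD11b- cells.

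Ratios of per-length levels within a library do not depend on the scaling between libraries. Stat5a and Stat5b together over Stat3 gave 0.331, 0.218, 0.332 and 0.238 in the CD11b+ libraries and 0.526, 1.07, 0.276 and 0.543 in the CD11b- libraries. By the principal transcript lengths, STAT5 message was thus below that of Stat3 in every library but CD11b- replicate 2. The populations overlapped through CD11b- replicate 3. Pim1 over Pim3 gave 0.289, 0.423, 1.30 and 0.728 in CD11b+ and 3.06, 3.07, 4.82 and 1.89 in CD11b-. Here the ranges did not overlap, and the mean log2 ratio was -0.78 in CD11b+ and 1.60 in CD11b-. Socs2 over Socs3 could be formed only in CD11b- replicates 2, 3 and 4, where it was 3.40, 15.8 and 2.29. Cish over Socs3 was 4.84, 12.1 and 0.840 in the same libraries. The principal transcripts measure 2222 bases for Socs2, 2850 for Cish and 2552 for Socs3. The union of exons measures 9531, 6419 and 2891 bases, so both ratios depend on the length used. The ratio of STAT5 to Stat3 does too. Principal transcripts measure 3888 bases for Stat5a, 5213 for Stat5b and 4516 for Stat3, and the unions of exons 7133, 5539 and 9527.

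**Figure D3:**
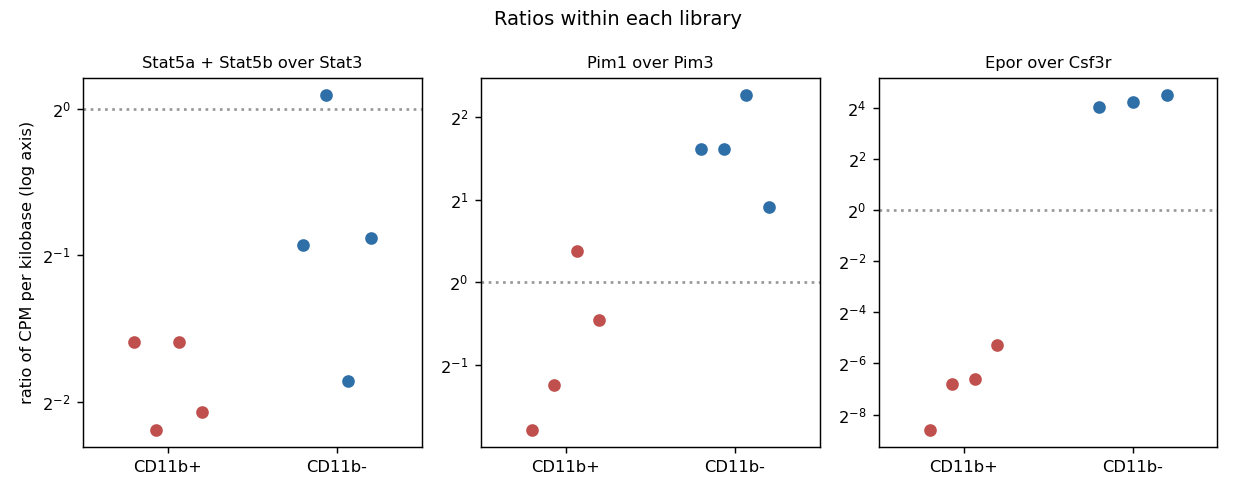
Ratio of CPM per kilobase of one gene to another within each library (log axis; each point is 1 library) by population. Epor over Csf3r is 0.00256 to 0.0260 in CD11b+ and 16.4 to 22.4 in the 3 CD11b- libraries that had a ratio, and Pim1 over Pim3 lies at 1.30 or less in CD11b+ and at 1.89 or more in CD11b-.

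The receptors upstream of these genes split by population. The list of receptors with JAK2 or gp130 had 15 tested genes. Of these, 5 were higher in CD11b+, 2 were lower and 8 did not pass the test, with a median log2 fold change of 1.06. The called share was 46.7%, beside 29.7% of all tested genes. Epor, the erythropoietin receptor, stood at 0.601, 1.85, 1.96 and 4.004 CPM across the CD11b+ libraries, against 124, 161, 176 and 119 CPM in CD11b-, with no overlap. It was 67.8-fold lower in CD11b+ (log2 -6.08, SE 0.54, edgeR adjusted p = 2.67e-05). Csf3r, the granulocyte colony-stimulating factor receptor, ran the other way, with 464, 409, 375 and 304 CPM in CD11b+, against 14.9, 17.1, 15.5 and 0 CPM in CD11b-. It was 33.2-fold higher in CD11b+ (edgeR adjusted p = 0.00433). Both genes also stand on marker lists, Epor on the erythroid and Csf3r on the neutrophil list. Epor over Csf3r was 0.00256, 0.00893, 0.0103 and 0.0260 in the CD11b+ libraries and 16.4, 18.6 and 22.4 in CD11b- replicates 1 to 3, and replicate 4, with Csf3r at 0, gave no ratio.

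Csf2ra, the ligand-binding chain for granulocyte-macrophage colony-stimulating factor, averaged 474 ± 54.3 CPM in CD11b+, against 11.5 ± 5.77 CPM in CD11b- (SD, n = 4), 43.1-fold higher (edgeR adjusted p = 1.07e-05). The interferon-gamma receptor chains rose together, Ifngr1 by 4.65-fold (edgeR adjusted p = 4.55e-05) and Ifngr2 by 3.14-fold (edgeR adjusted p = 0.000462). Csf2rb, the shared beta chain, was called 7.89-fold higher (edgeR adjusted p = 0.0314). That call was lost when any 1 of 7 libraries was left out, all but CD11b- replicate 3 (edgeR adjusted p = 0.0519 to 0.0664), without CD11b- replicates 1 and 2 together (12.9-fold, edgeR adjusted p = 0.0783), and in limma on log2(CPM + 0.1) (adjusted p = 0.0591). Lifr, the leukaemia inhibitory factor receptor, was called 2.74-fold lower (edgeR adjusted p = 0.0479), and lost the call without any 1 of the 7 libraries other than CD11b- replicate 4 (0.0541 to 0.128). It also lost it without CD11b- replicates 1 and 2 (0.118), with no filter (0.0796) and with totals that leave out the 20 most abundant genes (0.0645). Il5ra, the interleukin-5 receptor, at 37.3 ± 14.2 CPM and 9.60 ± 7.99 CPM, and Il6st, which encodes gp130, at 8.80 ± 3.97 CPM and 13.02 ± 4.69 CPM (SD, n = 4), did not pass the test. Il5ra was called by DESeq2 (adjusted p = 0.0401), by limma on log2(CPM + 1) (adjusted p = 0.0492) and without CD11b- replicate 3 (edgeR adjusted p = 0.0334). Its fold went from 4.08 to 11.8 without CD11b- replicates 1 and 2.

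The list of receptors with JAK1, JAK3 or TYK2 held 13 genes. It includes Crlf2, whose own chain binds JAK2, and no receptor stands on both receptor lists. Of the 13, 3 were higher in CD11b+ and 4 lower, and 6 did not pass the test (median log2 -0.46). The called share was 53.8%, beside 29.7% of all tested genes. Il7r, the interleukin-7 receptor of lymphoid precursors and a member of the B progenitor list, averaged 0.0702 CPM in CD11b+, against 38.7 CPM in CD11b-, a fitted 504.6-fold lower level (edgeR adjusted p = 0.00016), and 774-fold lower without CD11b+ replicate 2. Il2rg, the common gamma chain, was 1.79-fold lower (edgeR adjusted p = 0.00665) and Ifnar1, a type I interferon receptor chain, 2.01-fold lower (edgeR adjusted p = 0.0014). Il2rb was 9.02-fold lower (edgeR adjusted p = 0.00824), and 15.0-fold lower without CD11b+ replicate 3. Il10rb, a chain of the interleukin-10 receptor, was 1.63-fold higher (edgeR adjusted p = 0.00525). The calls of Il4ra (3.26-fold higher, edgeR adjusted p = 0.0499) and Crlf2 (2.90-fold higher, edgeR adjusted p = 0.0408) were close to the threshold. With all 8 libraries, Il4ra lost the call under relative log expression scaling (edgeR adjusted p = 0.0513) and in limma on log2(CPM + 0.1) (adjusted p = 0.0504), and Crlf2 lost it with no scaling factor (edgeR adjusted p = 0.0531) and with no filter (edgeR adjusted p = 0.0993). Il4ra kept its call on leaving out CD11b- replicate 1 or 3 and lost it on leaving out any 1 of the other 6 (0.0702 to 0.124), and Crlf2 kept it only on leaving out CD11b+ replicate 1 (0.0586 to 0.111 for the others). Without CD11b- replicates 1 and 2 the edgeR adjusted p was 0.0594 for Il4ra and 0.0813 for Crlf2. Ifnar2 (log2 -0.46) and Il21r (log2 -0.20) were the most abundant receptors of this list that were not called, and Ifnar2 was called without CD11b- replicate 1 (edgeR adjusted p = 0.0472) and without CD11b- replicates 1 and 2 (edgeR adjusted p = 0.0383).

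**Figure D4:**
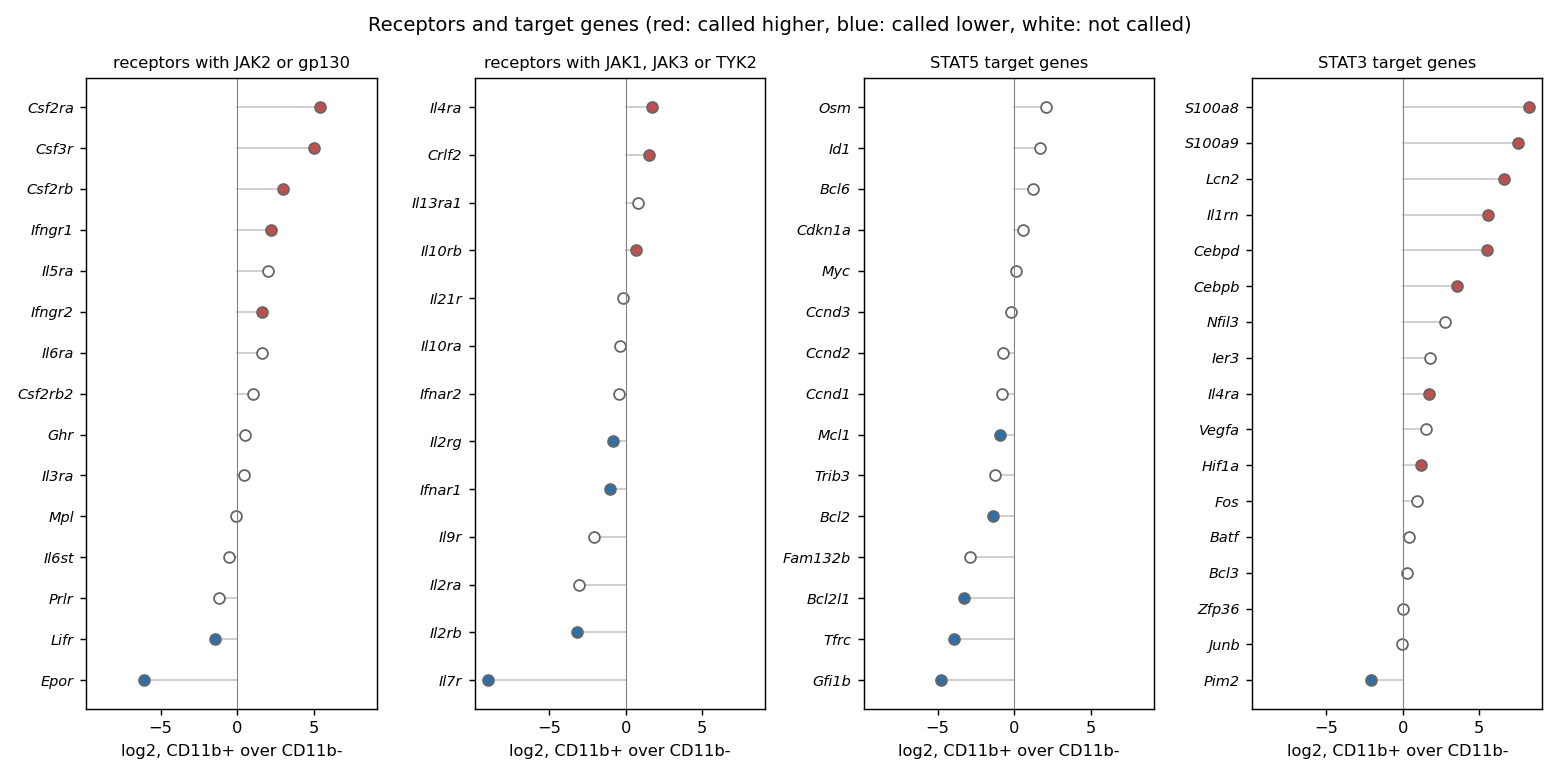
Fitted log2 fold change, CD11b+ over CD11b-, of the tested receptors and STAT target genes (horizontal axes; 1 point per gene, 1 panel per list); red points are called higher in CD11b+, blue points called lower and white points not called. Epor at -6.08 and Csf3r at 5.05 stand at opposite sides of the JAK2 and gp130 receptor list.

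Among the other 7 JAK kinases and STAT factors, 1 was higher, 1 was lower and 5 did not pass the test (median log2 0.50). The called share of 28.6% was near the 29.7% of all tested genes. Stat6, the interleukin-4 factor, was 2.27-fold higher in CD11b+ (edgeR adjusted p = 0.00898). Stat2, which acts in type I interferon signalling, was called 2.10-fold lower (edgeR adjusted p = 0.0221), a call lost without any 1 of CD11b+ replicates 1 and 4 and CD11b- replicates 1 and 2 (0.0528 to 0.066), and at 0.16 without the last 2 together. Jak1, at 333 ± 34.3 CPM and 459 ± 119 CPM (SD, n = 4), did not pass the test, and did without CD11b- replicate 2 (edgeR adjusted p = 0.0274) and without CD11b- replicates 1 and 2 (edgeR adjusted p = 0.0131). Of the 4 remaining SOCS genes and Pim2, Pim2 was 4.22-fold lower in CD11b+ (edgeR adjusted p = 0.00865), a call lost without CD11b- replicates 1 and 2 together (edgeR adjusted p = 0.0702). Socs6 was called 2.58-fold higher (edgeR adjusted p = 0.0212) and lost the call without any 1 of CD11b+ replicates 2, 3 and 4 and CD11b- replicate 2 (0.051 to 0.0594), and the other 3 genes were not called.

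Of 14 other inhibitors, 4 were higher in CD11b+, 2 were lower and 8 did not pass the test (median log2 0.76, 42.9% called beside 29.7% of all tested genes). The 4 were phosphatases: Ptpn6, which encodes SHP-1 and removes phosphate from the erythropoietin receptor complex, at 400 ± 49.1 CPM and 184 ± 29.3 CPM (SD, n = 4), 2.25-fold higher (edgeR adjusted p = 0.000233), Ptpn1 (2.02-fold, edgeR adjusted p = 0.00165), Ptpn2 (1.95-fold, edgeR adjusted p = 0.00713) and Ptprc, which encodes CD45 (1.68-fold, edgeR adjusted p = 0.00422). Usp18, an inhibitor of type I interferon signalling, was at 7.88 ± 1.13 CPM and 88.4 ± 9.34 CPM (SD, n = 4) and had an edgeR adjusted p of 5.2e-06 and a log2 difference of -3.45. Pias1 was called 1.51-fold lower (edgeR adjusted p = 0.0491), a call that was lost without any 1 library other than CD11b- replicate 1 (0.0594 to 0.124). With all 8 libraries it was lost with no filter (0.0671), with totals that leave out the 20 most abundant genes (0.0951) and in limma on log2(CPM + 1) and log2(CPM + 0.1) (0.0912 and 0.0991). Ptpn11 (log2 -0.76) and Pias4 (log2 -0.32) were not called.

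Of 16 adaptors and parallel kinases, 8 were higher in CD11b+, 1 was lower and 7 did not pass the test (median log2 1.14, 56.25% called beside 29.7% of all tested genes). Grb2, the adaptor that links receptors to RAS, was 2.26-fold higher (edgeR adjusted p = 0.00107) and the SRC-family kinase Lyn had a log2 difference of 1.10 (edgeR adjusted p = 0.000683). Vav1 was 2.77-fold higher (edgeR adjusted p = 0.000744), Mapk3, which encodes ERK1, 5.72-fold (edgeR adjusted p = 0.00122), Akt1 2.52-fold (edgeR adjusted p = 0.00944) and Pik3cd 2.51-fold (edgeR adjusted p = 0.00324). Pik3r1, a regulatory subunit of the same lipid kinase family as Pik3cd, went the other way, 3.49-fold lower in CD11b+ (edgeR adjusted p = 0.000575). Sh2b1 was 5.79-fold higher (edgeR adjusted p = 0.0054) and 10.9-fold higher without CD11b- replicates 1 and 2. Sh2b2 was called (edgeR adjusted p = 0.0237) at 19.6 ± 7.60 CPM and 0.491 ± 0.890 CPM (SD, n = 4), and lost the call without CD11b+ replicate 1 or 3 or CD11b- replicate 2 (0.0519 to 0.0615). Most of its CD11b- signal was in replicate 1, and its fitted fold went from 42.3 to 374 without that library. Without CD11b- replicates 1 and 2 no count was left, which makes the level in CD11b+ at least 399-fold higher (3 pooled counts, counting error only). Crkl (log2 -0.32) was not called.

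Of 15 tested genes known as STAT5 targets, 5 were lower in CD11b+, none was called higher and 10 did not pass the test, with a median log2 fold change of -0.79 and a positive log2 in 5. The called share of 33.3% was near the 29.7% of all tested genes. Bcl2l1, which encodes the survival protein BCL-XL, stood at 874, 780, 608 and 609 CPM across the CD11b+ libraries, against 7287, 9106, 8058 and 4214 CPM in CD11b-. It was 9.76-fold lower in CD11b+, with no overlap (edgeR adjusted p = 2.23e-05). Tfrc, the transferrin receptor, averaged 111 ± 45.8 CPM and 1727 ± 331 CPM (SD, n = 4), 15.0-fold lower (edgeR adjusted p = 3.21e-05), and Gfi1b, an erythroid and megakaryocytic repressor, 15.7 ± 7.84 CPM and 436 ± 84.0 CPM, 27.3-fold lower (edgeR adjusted p = 3.12e-05). Tfrc is also on the erythroid marker list. Mcl1 was 1.94-fold lower (edgeR adjusted p = 0.0136), a call lost without CD11b- replicates 1 and 2 together (edgeR adjusted p = 0.0766). Bcl2 was 2.56-fold lower (edgeR adjusted p = 0.0144). The D cyclins Ccnd3, at 744 ± 115 CPM and 901 ± 217 CPM, and Ccnd2, at 140 ± 41.5 CPM and 238 ± 78.7 CPM (SD, n = 4), were the most abundant targets not called, and Ccnd2 was called without CD11b- replicate 4 (edgeR adjusted p = 0.0133).

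The genes listed as STAT3 targets lay mostly on the other side. Of 17 tested, 8 were higher in CD11b+, 1 was lower (Pim2) and 8 did not pass the test, with a median log2 fold change of 1.71. The called share was 52.9%, beside 29.7% of all tested genes. No gene stands on both target lists, although Bcl2l1, Bcl2 and Mcl1, called lower above, are also known as STAT3 targets. The contrast between the target lists thus depends on how genes were assigned to them. Cebpb, a transcription factor of emergency granulopoiesis, stood at 296, 376, 322 and 336 CPM across the CD11b+ libraries, against 23.5, 42.6, 25.8 and 25.0 CPM in CD11b-, 11.7-fold higher (edgeR adjusted p = 4.37e-06). Cebpd was 45.3-fold higher (edgeR adjusted p = 0.00225), and 72.8-fold without CD11b- replicate 2. Hif1a, the hypoxia factor, was 2.27-fold higher (edgeR adjusted p = 0.00421). The neutrophil genes S100a8 and S100a9, which also stand on the neutrophil list, rose by 307-fold (edgeR adjusted p = 5.1e-05) and 185-fold (edgeR adjusted p = 0.000118). On leaving out CD11b- replicate 3 these became 600-fold and 460-fold. Lcn2, a siderophore-binding granule protein, was 99.6-fold higher (edgeR adjusted p = 0.000615), and 162-fold without CD11b- replicate 3. Without CD11b- replicates 1 and 2 the differences were 152-fold for Cebpd, 186-fold for S100a8, 113-fold for S100a9 and 65.4-fold for Lcn2.

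Il1rn, the interleukin-1 receptor antagonist, averaged 27.9 ± 9.04 CPM in CD11b+ (SD, n = 4), and in CD11b- it was at 0 but for 2.48 CPM in replicate 4. Its call (edgeR adjusted p = 0.035) was lost without any 1 library other than CD11b- replicates 3 and 4 (0.0508 to 0.0769) and without CD11b- replicates 1 and 2 together (0.0631). Without CD11b- replicate 4 the level in CD11b+ was at least 888-fold higher (3 pooled counts, counting error only). Junb (log2 -0.07) and Nfil3 (log2 2.76) were not called in the edgeR test of all libraries, but Nfil3 was called by DESeq2 (adjusted p = 0.0154), by limma on log2(CPM + 1) (adjusted p = 0.0116) and without CD11b- replicate 3 (edgeR adjusted p = 0.000953). Socs3, itself a known STAT3 target, was at 0 in the CD11b+ libraries, in which Stat3, Csf3r and these 8 target genes were called higher than in CD11b-. The 8 include Il4ra, described above with the receptors, and its call and that of Il1rn were lost under several alternatives. Over all 8 pathway lists, 29 of 100 tested genes were called higher and 16 lower, 45% in all beside the 29.7% of all tested genes. The lists were chosen with earlier results of these data known, and several of their genes also stand on the marker lists. This share and those of the single lists are therefore descriptions and no evidence about the pathway.

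The genes whose levels followed 4 of the members most closely were found by Pearson correlation of log2(CPM + 1) over the 8 libraries, among 8002 or 8003 genes with a mean of at least 10 CPM. As all 8 libraries enter, the coefficients carry the difference between the populations and are given as a description. Jak2 was closest to Orc1, a subunit of the replication origin complex (r = 0.985), Ltb (r = 0.985) and Mgll (r = 0.984). Socs2 was closest to Mcph1 (r = 0.995), Psmf1 (r = 0.994) and the mitotic kinase gene Aurkb (r = 0.994). Cish was closest to Ankrd17 (r = 0.964), Fbxw7 (r = 0.948) and Pcnxl3 (r = 0.948), and Socs3 to Haus3 (r = 0.952), Ccdc25 (r = 0.948) and Pdrg1 (r = 0.944). As Socs3 was at 0 in every CD11b+ library and in CD11b- replicate 1, its coefficients rest on the remaining CD11b- libraries, with 27 to 145 counts each.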

How the data were processed

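SmartSeq2 libraries of 4 CD11b+ and 4 CD11b- sorted samples were analysed, grouped by their titles. The deposited file of each library holds whole-number counts per gene symbol. The CPM table deposited by the authors could be rebuilt from these counts to within 0.0005. Per the submitters' processing notes, the build was mm9 and the tools included TopHat2, DESeq2 and HTSeq 0.10.0, with no role stated. Which annotation was used, whether strand was counted and how reads with several hits were handled is not given in the sources used here. Of 18817 rows, 27 carried numbers in place of symbols (0.205% to 0.514% of counts) and were left out.

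Counts were fitted with edgeR 4.0.16 in R 4.3.3 (TMM scaling, filterByExpr defaults, quasi-likelihood test, prior count 0.125, no covariate), with p-values adjusted by Benjamini-Hochberg over all 11965 tested genes. Standard errors were worked back from the F statistic. The scripts were tested on simulated data. Lengths are those of the longest principal transcript in GENCODE M21, which is not of the build mm9, so it served for lengths, neighbours and overlaps only. Reads carry no molecular identifiers, so floors cover counting error only. Replicates differed by far more than counting noise (chi-square per degree of freedom 124.5 to 217.3).

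The members and lists were chosen with earlier results of these data known. Named were all 10 members, every called pathway gene, the 2 most abundant uncalled genes of each list, and the 3 genes most like Jak2, Cish, Socs2 and Socs3. Of the STAT5 targets, Podxl was not analysed here, and Erfe stands in the files, and was tested, under its older symbol Fam132b. Of the uncalled genes under this rule, 2 are not reported here. The alternatives were DESeq2 1.42.0, limma 3.58.1 on log2(CPM + 1) and log2(CPM + 0.1), other scalings, filters and prior counts, the replicate number as a block, leaving out each library, and leaving out the 2 CD11b- libraries highest in Mpo, 19 in all. The union of exons as length, and leaving out libraries for the ratios and for the bound on Socs3, were added after seeing the data.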

Additional observations from a re-analysis of the deposited data

Results flagged for a closer look

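In 14 of 142 groups of 4 libraries 1 library stood apart from the other 3, its gap to the nearest of them being too large a part of the whole range by Dixon's 95% critical value (which flags about 5% of groups by chance). Of the members, Jak2 reached 207.2 CPM in CD11b- replicate 1, with the others at 178.2 to 182.9 CPM. Stat5b fell to 53.25 CPM in CD11b+ replicate 4, with the others at 98.02 to 106.6 CPM. Cish reached 10.05 CPM in CD11b+ replicate 2, with the others at 1.94 to 2.80 CPM.

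Of the other pathway genes in CD11b+, Il4ra was high in replicate 2 (101.5 CPM, others 55.34 to 60.75 CPM), as was Cebpd (259 CPM, others 213.4 to 215.7 CPM). Crlf2 was low in replicate 1 (7.158 CPM, others 12.57 to 13.17 CPM), as was Socs6 (22.37 CPM, others 41.83 to 44.78 CPM). In CD11b-, Csf3r was at 0 CPM in replicate 4, with the others at 14.94 to 17.15 CPM, and Ccnd2 was low there (120.2 CPM, others 274.7 to 280 CPM). Il1rn was at 2.476 CPM in CD11b- replicate 4 and at 0 in the others. Vav1 was low in CD11b- replicate 3 (69.08 CPM, others 143.7 to 152.3 CPM) and S100a9 high there (47.35 CPM, others 5.33 to 10.45 CPM). Sh2b2 was high in CD11b- replicate 1 (1.823 CPM, others 0 to 0.142 CPM) and Cebpb in CD11b- replicate 2 (42.63 CPM, others 23.46 to 25.78 CPM).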

How the results depend on the processing

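The members' 4 calls and directions held under every one of the 19 alternatives that tested them. Of 169 alternative values of the 9 tested members, 167 kept direction and side of the threshold and 2 passed it (Stat5a and Cish), and none reversed. Members called higher in CD11b+ numbered 2 rather than 1 without the 2 CD11b- libraries highest in Mpo, which were also the highest of CD11b- in the added member, Stat5a. Leaving out 1 library gave 3035 to 3418 called genes (1456 to 1754 higher, 1579 to 1670 lower), 4 to 5 called members (1 to 1 higher, 3 to 4 lower), and 23 to 32 higher and 13 to 16 lower pathway genes. It gave a bound of 94.7 to 174-fold for Socs3 and mean log2 ratio differences of -1.29 to -0.64 for STAT5 over Stat3 and -2.77 to -2.04 for Pim1 over Pim3. Of 1155 values of 61 pathway genes, 1067 held, 76 lost and 12 gained the call, and none that was called reversed. DESeq2 called 4247 genes and limma on log2(CPM + 1) 4211, against 3549. Totals without the 20 most abundant genes moved the median of all genes by 0.11 on the log2 scale, and the Jak2 difference relative to it stayed negative. With the replicate number as a block, 3195 genes were called, and no member's call changed. Among the pathway genes, the block's adjusted p was over the threshold for Csf2rb (0.0582), Lifr (0.0833), Il4ra (0.0516), Crlf2 (0.129), Socs6 (0.0714) and Bcl2 (0.0526). Same-numbered libraries correlated by 0.0198 to 0.0643 in their deviations, and 2 of 4 CD11b+ libraries correlated best with their own number. Correlations this small cannot decide whether same-numbered libraries are paired, and the labels give only a number. Depth limits Socs2 and Socs3 in CD11b+, with 0 to 24 counts a library.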
